A study of Mus musculus with 8 samples.

Results

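Potassium channels are membrane proteins that let potassium leave or enter the cell and thereby set its membrane potential. Cells use that potential for electrical signaling, and epithelial and tumor cells use it to drive calcium entry, fluid secretion, volume regulation and cell cycle progression. Most pore-forming subunits assemble into tetramers, tandem-pore subunits into dimers, and auxiliary subunits alter gating or transport to the surface. The genes described here were chosen by name, as all rows of the deposited table whose symbol is Kcn followed by letters and a number, which gave 88 genes of 34478. The family drew attention because Kcns1 is among the genes with the largest rise. The change of Kcns1 is therefore given as a description without a test and is left out of the counts of changed genes, while the other members follow from their names alone.

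RNA was sequenced from 4 primary lines of murine pancreatic ductal adenocarcinoma (PDAC), numbered #1, #3, #5 and #10, with 1 library per line and treatment. All lines, controls included, come from tumors of genetically engineered mice in which Cre from the Ptf1a locus switches on an oncogene and removes the Trp53loxP/loxP alleles in cells of the pancreatic lineage. The MEKi libraries come from cells kept for 48 h with the MEK inhibitor trametinib at the IC50 of their line, and the controls were given the solvent DMSO. The labels do not say whether the lines came from separate animals, so p-values measure the spread between these lines. Library totals ran from 30680091 to 36385719 normalized counts, which corresponds to about 29300000 to 46100000 reads, and an estimated 3 reads came to between 2.32 and 3.72 normalized counts. Of 10 genes that follow MAPK signaling, 9 fell with trametinib (limma, adjusted p under 0.05), Dusp6 among them with a log2 change of -2.51 (SE 0.14, adjusted p = 0.00012). Epha4, the other gene, showed a log2 change of 0.87 (adjusted p = 0.0504). The keratins Krt8, Krt18 and Krt19 had means of 31750 or more in each treatment, though all fell. Of other epithelial markers, Cdh1 had means of 24590 with DMSO and 24100 with trametinib (adjusted p = 0.88) and Muc1 of 10330 and 6319. Epcam, in contrast, had a mean of 2.6 with DMSO and 0.939 with trametinib.

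Of the 88 potassium channel genes, 7 were listed at 0 in every library and a further 20 never exceeded 3 reads. Another 36 exceeded 3 reads in at least 1 library but had a mean under 10 normalized counts, and 25 had a mean of at least 10, of which 24 were tested and Kcns1 was not. Between 29 and 42 members exceeded 3 reads in a given library, and 17 did so in all 8. The genes at 0 throughout were Kcna5, Kcna10 and Kcnh8 of the voltage-gated (Kv) subunits, Kcnj13 of the inward rectifiers, Kcnk15 of the tandem-pore channels, Kcnt1 of the sodium-activated channels and the auxiliary subunit Kcnmb3. A 0 here means that the gene is listed at 0 at this depth. The filter kept Kcne2 and Kcnq3, with means of 11.4 and 11.4, and left out Kcnj10 and Kcnj4, with means of 9.73 and 9.56. Of the 25 genes, 3 passed only through their level with trametinib (Kcns1, Kcne2 and Kcnmb4) and 1 only through its level with DMSO (Kcnq3).

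**Figure D1:**
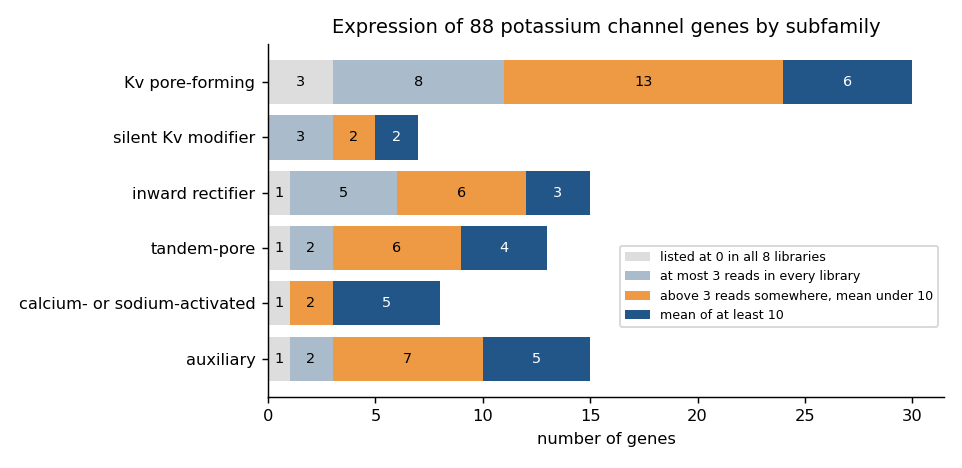
Number of potassium channel genes (x axis) in each subfamily (y axis), split by whether a gene was listed at 0 in all 8 libraries, stayed at or under 3 reads, exceeded 3 reads with a mean under 10 normalized counts, or had a mean of at least 10. The Kv pore-forming group has 30 members, of which 6 reached a mean of 10, and the calcium- or sodium-activated group has 8, of which 5 did.

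Of the 24 members tested, 7 rose and 4 fell with trametinib. These are 29.2% and 16.7% of the members tested, where 27.3% of all 15888 genes rose and 25.6% fell, and since the family was picked on this comparison nothing is read from the shares. The 7 include Kcne2 and Kcnmb4, which passed the filter only through their level with trametinib and so had to differ. Among the 21 members with a mean of at least 10 in each treatment, a split made after the data had been seen, 5 rose and 4 fell, where 26.6% of all such genes rose and 26.5% fell. The median log2 fold change of the 24 genes was 0.30, and that of all genes tested was 0.07. The libraries of the treatments did not overlap for 4 members that were higher and 2 that were lower with trametinib, against 15.1% and 16.2% of all genes. Without the cell line as a block, 4 members rose and 2 fell, and Kcnu1, Kcnd1, Kcnk1, Kcnj14 and Kcnmb4 no longer passed. Of all 15888 genes, 2205 rose and 2347 fell without the block, against 4341 and 4075 with it. The summed normalized counts of the 88 genes lay between 5422 and 8935 with DMSO and between 4651 and 7750 with trametinib. Kcnn4 alone made up 45.3% to 71.6% of that sum with DMSO and 11.8% to 40.2% with trametinib.

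**Figure D2:**
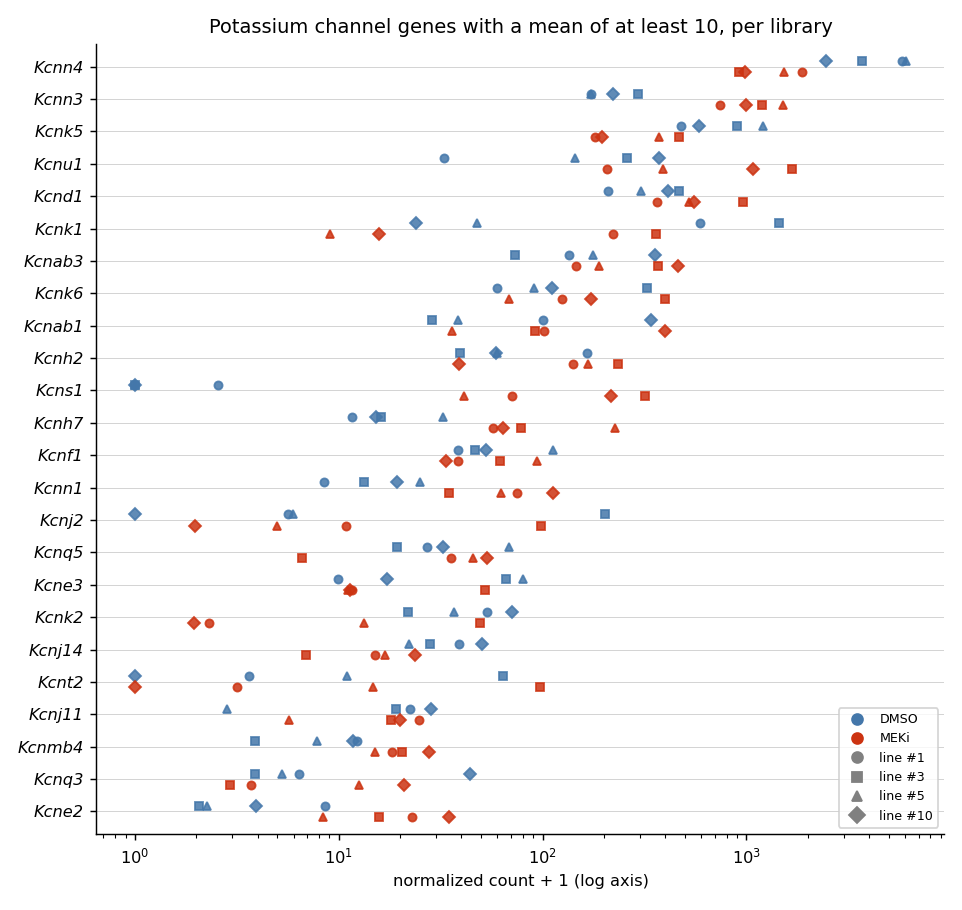
Normalized count plus 1 on a log axis (x) of 24 of the 25 potassium channel genes with a mean of at least 10 (y), with 1 point per library, colored by treatment and shaped by line. Kcnn4 is the highest gene in every DMSO library, while Kcns1 is at or near the left edge with DMSO and between 40 and 316 with trametinib.

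The calcium-activated group held the most abundant member and changes in both directions. Kcnn4 encodes the intermediate-conductance calcium-activated channel, which in epithelia keeps the membrane polarized during chloride secretion. It lies on chromosome 7 from 24370263 to 24386690 of GRCm38. With DMSO it stood at 5804, 3698, 6070 and 2455 normalized counts in lines #1, #3, #5 and #10, and with trametinib at 1868, 915, 1537 and 988. Every trametinib library was below every DMSO library. The log2 change was -1.74 (SE 0.13, adjusted p = 0.00031), from -2.01 in line #3 to -1.31 in line #10.

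Kcnn3 and Kcnn1 encode small-conductance channels of the same family, which open on calcium bound to calmodulin and are best known from neurons. Kcnn3, on chromosome 3 from 89520164 to 89675132, went from 171, 293, 172 and 220 normalized counts with DMSO to 745, 1194, 1518 and 997 with trametinib in lines #1, #3, #5 and #10. All 4 trametinib libraries were above all 4 DMSO libraries, and the log2 change was 2.36 (SE 0.20, adjusted p = 0.00037). Kcnn1, on chromosome 8 from 70842049 to 70863258, went from 7.44, 12.3, 23.9 and 18.2 to 73.8, 33.8, 61.3 and 112, again without overlap, with a log2 change of 2.10 (SE 0.39, adjusted p = 0.0043). Kcnn2, the remaining small-conductance gene, had a mean under 10 and stood at 7.17 or lower in all libraries. Per kb of the longest transcript, Kcnn4 was 25.5 to 80.5 times as high as Kcnn3 with DMSO and 1.75 to 5.73 times as high with trametinib, so it was the higher gene in each of the 8 libraries. Kcnn3 made up 1.22% to 3.74% of the summed level per kb of the 4 Kcnn genes with DMSO and 14.4% to 35.4% with trametinib. The sum itself lay between 708 and 1700 per kb with DMSO and between 405 and 623 with trametinib.

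Kcnu1 encodes a pH-sensitive channel of the large-conductance family that is known from sperm. It lies on chromosome 8 from 25849623 to 25937939 and was at 32.0, 258, 143 and 373 normalized counts with DMSO and 207, 1671, 388 and 1074 with trametinib in lines #1, #3, #5 and #10. The groups overlap, since line #1 with trametinib is below lines #3 and #10 with DMSO, but each line was higher with trametinib. Its log2 change was 2.07 (SE 0.26, adjusted p = 0.0011) with the block and its adjusted p was 0.099 without it. Kcnma1, the large-conductance channel of smooth muscle and many other cells, had a mean under 10 and stood at no more than 10.2 in any library. Kcnt2, a sodium-activated channel, was seen mainly in line #3, at 63.2 with DMSO and 96.7 after treatment, and was at 0 in line #10 (log2 change 0.21, adjusted p = 0.67).

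Among the Kv modifiers, Kcns1 encodes a subunit that forms no working channel of its own and joins other Kv subunits to change their gating. It lies on chromosome 2 from 164163619 to 164171113. With DMSO it was at 1.55 normalized counts in line #1, about 2 reads, and listed at 0 in lines #3, #5 and #10. With trametinib it was at 69.5, 316, 40.0 and 215 in lines #1, #3, #5 and #10, so all 4 trametinib libraries were above all 4 DMSO libraries. Against a floor of 3 reads in the DMSO library of the same line, it was at least 101-fold higher in line #3, at least 10.8-fold higher in line #5 and at least 75.1-fold higher in line #10. Kcnb2, a known partner, had a mean under 10 and was at 8.96 or lower throughout. Of the 6 other modifiers, only Kcnf1 reached a mean of 10, with 37.2 to 112 normalized counts with DMSO and 32.7 to 92.7 with trametinib (log2 fold change -0.13, adjusted p = 0.69).

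**Figure D3:**
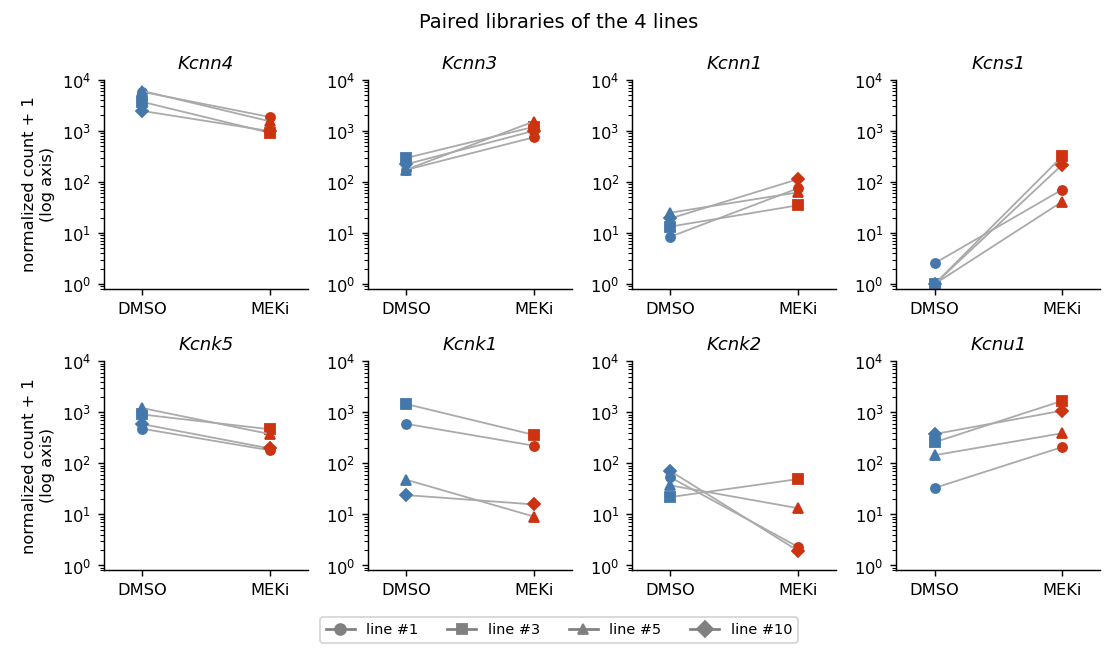
Normalized count plus 1 on a log axis (y) in the DMSO and MEKi library (x) of each line, joined by a grey line, for 8 potassium channel genes. Kcnn4, Kcnk5 and Kcnk1 slope down and Kcnn3, Kcnn1, Kcns1 and Kcnu1 slope up in all 4 lines, whereas Kcnk2 goes up in line #3 and down in the other lines.

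The 250 bases before the annotated start of the most abundant member, of its relative with the opposite change and of Kcns1 are shown so that the regions next to these genes can be compared. They are from RefSeq on GRCm38.p6, for Kcns1 chr2:164171114-164171363 on the minus strand, for Kcnn3 chr3:89519914-89520163 and for Kcnn4 chr7:24370013-24370262, both on the plus strand. Capitals mark matches on either strand to the E-box CACGTG, bound by MYC and related factors, and the GC box GGGCGG, bound by SP1.
Kcns1: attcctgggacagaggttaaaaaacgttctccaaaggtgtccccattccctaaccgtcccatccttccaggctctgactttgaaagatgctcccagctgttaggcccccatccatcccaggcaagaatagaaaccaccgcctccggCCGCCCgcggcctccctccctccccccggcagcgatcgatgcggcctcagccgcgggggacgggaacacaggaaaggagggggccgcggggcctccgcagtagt
Kcnn3: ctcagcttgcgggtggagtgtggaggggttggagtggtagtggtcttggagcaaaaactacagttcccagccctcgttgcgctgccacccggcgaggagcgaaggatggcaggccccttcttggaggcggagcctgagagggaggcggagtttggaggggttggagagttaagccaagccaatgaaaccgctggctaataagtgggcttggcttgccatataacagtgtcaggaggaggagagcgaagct
Kcnn4: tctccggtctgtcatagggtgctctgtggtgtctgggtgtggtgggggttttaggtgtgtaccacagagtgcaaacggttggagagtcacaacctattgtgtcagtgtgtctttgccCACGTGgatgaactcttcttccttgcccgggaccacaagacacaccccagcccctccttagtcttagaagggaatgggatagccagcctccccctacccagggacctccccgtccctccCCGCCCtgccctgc

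Also searched on both strands were the AP-1 site TGANTCA, the ETS core CCGGAA and the SRF CArG box. Kcnn4 had the E-box starting 133 bases before the start, a motif found in 6.02% of 32851 promoter windows of this length, and a GC box at 14 bases. Kcns1 had a GC box at 104 bases, as do 32.7% of all windows, and Kcnn3 had none of the 5 motifs. The AP-1 site occurs in 6.75%, the ETS core in 12% and the CArG box in 1.47% of windows, and none of these was in the windows shown. No site matched here was tested for binding.

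Of the 4 tandem-pore genes tested, 2 fell and the other two did not pass. Kcnk5, on chromosome 14 from 20140057 to 20181809, encodes an alkaline-activated background channel of secretory and kidney epithelia. It went from 476, 904, 1210 and 585 normalized counts with DMSO to 179, 464, 374 and 195 with trametinib in lines #1, #3, #5 and #10, without overlap. Its log2 change was -1.41 (SE 0.15, adjusted p = 0.00069). Kcnk1, on chromosome 8 from 125995170 to 126030685, encodes a weakly conducting background channel and was at 592, 1448, 46.7 and 22.9 with DMSO and 221, 359, 8.08 and 14.7 with trametinib. Lines #1 and #3 were above lines #5 and #10 in both treatments, and within each line the trametinib library was lower. The log2 fold change of Kcnk1 was -1.61 (standard error 0.31, adjusted p = 0.0053), and the adjusted p was 0.487 without the block.

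Kcnk2, a mechanosensitive background channel, behaved differently in line #3. With DMSO it was at 52.1, 20.8, 35.9 and 69.5 normalized counts in lines #1, #3, #5 and #10, and with trametinib at 1.32, 48.1, 12.2 and 0.94. The log2 change was -4.52, -1.48 and -5.18 in lines #1, #5 and #10 and 1.17 in line #3. The trametinib values of lines #1 and #10 correspond to about 1 read each, so the size of the change is uncertain there. Over all lines the log2 change was -2.50 (SE 1.02, adjusted p = 0.078), and leaving out a line gave -1.83 without line #1 (adjusted p = 0.246), -3.73 without line #3 (adjusted p = 0.007), -2.84 without line #5 (adjusted p = 0.119) and -1.61 without line #10 (adjusted p = 0.247). Line #3, the line that was higher with trametinib, is thus the 1 whose omission gave a call. With all 4 lines, the log2 change of Kcnk2 was -2.90 with a pseudocount of 0.1 (adjusted p = 0.081) and -1.76 with a pseudocount of 5 (adjusted p = 0.085). Each line has 1 library per treatment, so the difference between lines was not tested. Kcnk6, a background channel of endosomes and lysosomes, was at 59.0, 325, 89.4 and 110 in the DMSO libraries and at 123, 397, 67.2 and 171 in the trametinib libraries of lines #1, #3, #5 and #10. It was higher with trametinib in all lines but #5 (log2 change 0.39, adjusted p = 0.24, and 0.17 to 0.66 with a line left out).

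The inward rectifiers, which pass potassium more easily into the cell and hold the resting potential, had 3 of 15 members with a mean of at least 10, of which 1 fell. Kcnj14, on chromosome 7 from 45816460 to 45824782, fell from 37.9, 27.0, 21.1 and 49.4 normalized counts with DMSO to 14.0, 5.87, 15.8 and 22.6 with trametinib in lines #1, #3, #5 and #10, with a log2 change of -1.22 (SE 0.35, adjusted p = 0.025). The groups overlap by 1 library, line #10 with trametinib, which is above line #5 with DMSO. All 4 lines were lower with trametinib. The log2 change was -1.17 without line #1 (adjusted p = 0.0849), -0.96 without line #3 (adjusted p = 0.0606) and -1.27 without line #10 (adjusted p = 0.0723), so the call did not hold on these sets of 3 lines. It did not hold without the filter on low values either (adjusted p = 0.056). Kcnj2, a strong rectifier, stood in line #3 at 201 with DMSO and 97.2 with trametinib and at 9.8 or lower in the libraries of the other lines. Kcnj11, the pore of the ATP-sensitive channel, stood between 1.82 and 27.4 in all libraries (adjusted p = 0.77), and its partner Abcc8 had a mean of 16.3 with DMSO and 13.4 with trametinib (adjusted p = 0.61).

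Of the 6 Kv pore-forming genes tested, 2 rose and 4 did not pass. Kcnh7, of the ether-a-go-go-related channels that repolarize excitable cells, lies on chromosome 2 from 62693414 to 63184287. It rose from 10.6, 15.1, 31.3 and 14.3 normalized counts with DMSO to 55.9, 77.3, 226 and 62.9 with trametinib in lines #1, #3, #5 and #10, without overlap. Its log2 change was 2.37 (SE 0.25, adjusted p = 0.00068). Kcnd1, which encodes a rapidly inactivating channel and lies on chromosome X from 7822289 to 7838280, went from 208, 468, 303 and 410 to 364, 959, 522 and 554. The groups overlap, each line was higher with trametinib, and the log2 change was 0.76 (SE 0.14, adjusted p = 0.0038). Kcnh2, the relative of Kcnh7 known from the heart, stood at 165, 38.3, 58.8 and 57.8 in DMSO and at 140, 235, 166 and 38.0 in trametinib for the lines in the same order. It was higher in lines #3 and #5 (2.58 and 1.48 on the log2 scale) and lower in lines #1 and #10 (-0.23 and -0.59), with an adjusted p of 0.23. For Kcnq3, a subunit of the neuronal M channel, the log2 change was 1.25 in line #5 and -1.06 in line #10 (adjusted p = 0.70). Kcnq5, another subunit of M-type channels, ranged from 18.3 to 67.4 in DMSO and from 5.60 to 52.5 in trametinib (log2 change -0.26, adjusted p = 0.63).

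Auxiliary subunits tested comprised 2 that rose and 3 that did not pass. Kcne2, a single-pass subunit that modifies several Kv channels and is needed for acid secretion in the stomach, lies on chromosome 16 from 92292389 to 92298129. It was at 7.59, 1.06, 1.26 and 2.93 normalized counts with DMSO and 22.0, 14.7, 7.35 and 33.9 with trametinib in lines #1, #3, #5 and #10 (log2 change 2.35, SE 0.45, adjusted p = 0.0052). Kcne2 passed the filter only through its level with trametinib, so its p-value does not stand as independent of that selection. Without line #10 its mean fell under 10 and it was not tested, so the call exists only with that line, while it held without line #1, #3 or #5 (adjusted p = 0.0135 to 0.0156). The DMSO values of lines #3 and #5 correspond to about 1 read each, so the size of the change is uncertain there, and the log2 change was 2.79 with a pseudocount of 0.1, 1.52 with a pseudocount of 5 and 1.68 with quantile normalization. Kcnmb4, an auxiliary subunit of the large-conductance channel on chromosome 10 from 116417861 to 116473878, went from 11.3, 2.86, 6.86 and 10.7 to 17.3, 19.4, 14.1 and 26.7, without overlap. Its log2 change was 1.29 (SE 0.41, adjusted p = 0.036), and it too passed the filter only through trametinib. It no longer passed the test when any 1 of the lines was left out (adjusted p = 0.0518 to 0.0992). Quantile normalization, median centring and testing without the filter also ended this call (adjusted p = 0.113, 0.0512 and 0.0788). Kcnab3, a cytoplasmic beta subunit of Kv channels, went from 135, 72.0, 176 and 354 to 145, 368, 188 and 460. It was 2.34 higher on the log2 scale in line #3 and between 0.09 and 0.38 higher in the other lines (adjusted p = 0.15). Kcnab1, its relative, was at 99.6, 27.6, 37.5 and 338 under DMSO and at 101, 90.8, 35.0 and 399 under trametinib. Kcne3, which holds epithelial Kcnq1 channels open, was at 8.97, 65.0, 79.4 and 16.2 and at 10.6, 51.0, 10.1 and 10.3. Kcnab1 and Kcne3 had log2 changes of 0.46 and -0.90 (adjusted p = 0.27 and 0.19). With a line left out, Kcnab1 ran from 0.05 to 0.65 and Kcne3 from -1.27 to -0.24.

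**Figure D4:**
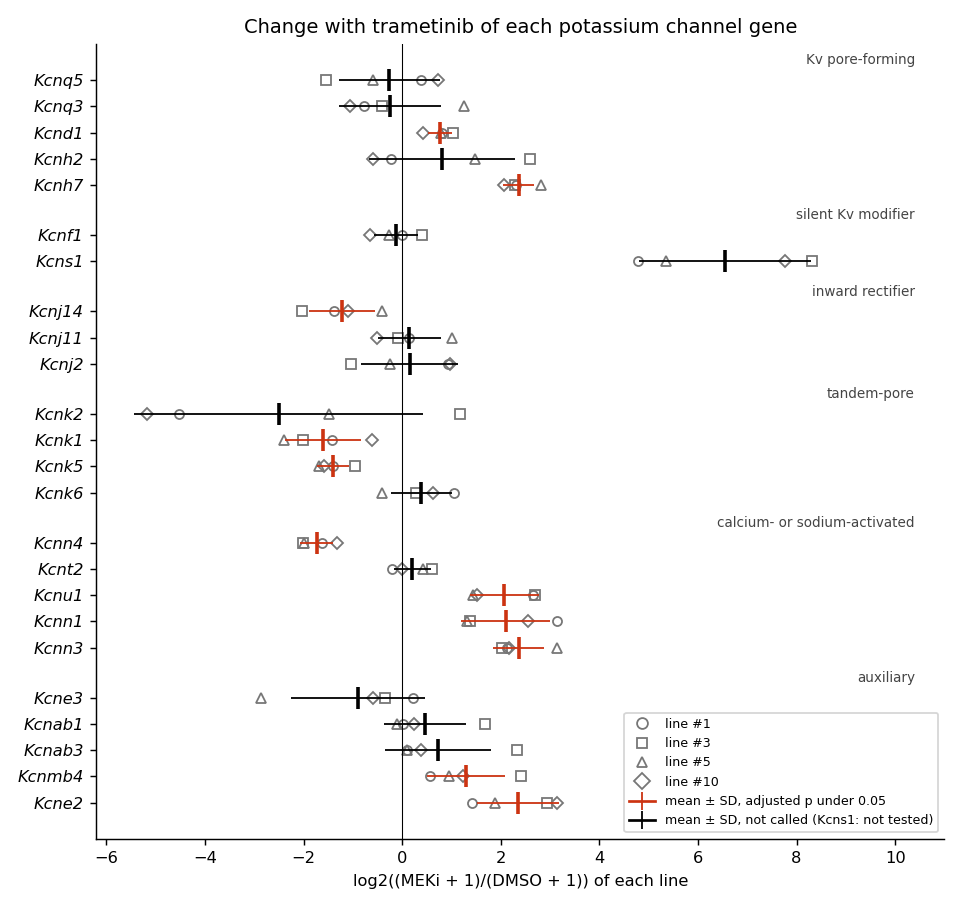
Log2((MEKi + 1)/(DMSO + 1)) of each line (x axis) for 24 of the 25 potassium channel genes with a mean of at least 10 (y axis), grouped by subfamily, with open symbols for the 4 lines and bars for their mean ± SD. The 4 lines of Kcnn4 lie between -2.01 and -1.31 and those of Kcnn3 between 2.03 and 3.13, while those of Kcnk2 run from -5.18 to 1.17. The lowest value of Kcnk2 rests on about 1 read with trametinib.

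Of the 25 genes, 12 differed between the lines (limma, F test over the 4 lines in the same fit, adjusted p under 0.05), where 27.6% of all genes did. In this test the libraries of a line stand for its replicates although they were treated differently, and it was added after the data had been seen. Kcnk1 varied 45.8-fold between line #3 and line #10, on the mean of a line's libraries plus 1 (adjusted p = 0.0015). Kcnt2 was at 63.2 and 96.7 normalized counts in line #3 and at 13.8 or lower elsewhere (adjusted p = 0.0029), and for Kcnj2, likewise highest in line #3, the adjusted p was 0.0052. Kcnab1 was highest in line #10, at 338 and 399, and lowest on the mean of both libraries in line #5, at 37.5 and 35.0 (adjusted p = 0.013). Kcnu1 was lowest in line #1 (adjusted p = 0.0071). The other members called were Kcnk5, Kcnn4, Kcnd1, Kcnk6, Kcnj11, Kcnh7 and Kcnq3, with adjusted p-values between 0.016 and 0.049. Kcnn3 and Kcnn1 had adjusted p-values of 0.25 and 0.31 between lines.

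Per kb of the longest transcript, the order of the mean levels with DMSO was Kcnn4 at 1240, Kcnk1 at 236, Kcnk5 at 234, Kcnab3 at 72.6, Kcnd1 at 65.7 and Kcnu1 at 57.0. With trametinib it was Kcnn4 at 365, Kcnu1 at 236, Kcnn3 at 134, Kcnab3 at 114, Kcnd1 at 113 and Kcnk5 at 89.3. Kcnn3 stood further down with DMSO, at 25.7. In DMSO the mean count of Kcnk1 was 527 ± 668 (SD, n = 4) and that of Kcnu1 202 ± 147, so the order below Kcnn4 does not hold in every line. Kcnk1 was at 265 and 648 per kb in lines #1 and #3 with DMSO but at 20.9 and 10.2 in lines #5 and #10, below Kcnab3, Kcnd1 and Kcnu1 there. With trametinib the order of the means varied between lines as well, since Kcnu1 was above Kcnn4 in lines #3 and #10 (473 against 252 and 304 against 272 per kb) and below it in lines #1 and #5 (58.5 against 514 and 110 against 423). Kcnn3, Kcnab3 and Kcnd1 likewise changed places between lines. The same 6 genes, though not in the same order, led in each treatment with merged exon length in place of transcript length.

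Of the 63 members under the filter, values are given without a test. Kcna4, a rapidly inactivating Kv subunit, stood in line #10 at 24.6 with DMSO and 31.1 with trametinib and at 4.58 or lower elsewhere. Kcnj10, an inward rectifier of glia, was at 29.9 and 21.2 with trametinib in lines #3 and #10 and at 9.38 or lower in the other libraries. Kcnj4, a strong inward rectifier, was at 11.2 or lower with DMSO and at 6.84 to 21.2 with trametinib. Kcnc1, a fast delayed rectifier, stood between 1.55 and 6.86, and the auxiliary subunit Kcne4 at 1.17 or lower with DMSO and at 2.93 to 3.14, about 3 to 4 reads, with trametinib.

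A list of 41 genes that work beside potassium channels, among them the sodium-potassium pump, cation-chloride cotransporters and channel partners, held 29 genes that passed the filter, of which 12 rose and 4 fell. Their median log2 fold change was 0.55, where that of all genes was 0.07 and 27.3% of all genes rose and 25.6% fell. Slc12a2, which carries sodium, potassium and chloride into the cell, fell from 18420, 26180, 25480 and 18710 normalized counts with DMSO to 3882, 4682, 4498 and 3291 with trametinib in lines #1, #3, #5 and #10 (log2 change -2.43, SE 0.09, adjusted p = 5.7e-05). The potassium-chloride cotransporters Slc12a5 and Slc12a7, which carry both ions out, rose by 1.95 and 1.48 on the log2 scale (adjusted p = 0.0026 and 0.00027), and Slc12a4 showed a log2 change of 0.34 (adjusted p = 0.22). Slc12a7 went from 3496, 3701, 3889 and 3023 to 9025, 8503, 12360 and 9840. Of the beta subunits of the pump, Atp1b1 rose by 0.93 and Atp1b3 fell by 0.56 on the log2 scale. Of the 12 that rose, 3 had a DMSO mean under 10, Hcn4 and Fxyd6 among them, and so entered the test only through trametinib. The pacemaker channel gene Hcn4 was at 0 to 7.45 with DMSO and at 1.93 to 51.0 with trametinib. Other genes that rose included Slc12a9, Tmem175, Tmem38a and Tmem38b, and Fxyd5 and Vapb fell. Without the block, 7 of the list rose and 2 fell, where 2205 of all 15888 genes rose and 2347 fell.

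Some markers of other cell types in which these channels are known rose too. The summed normalized counts of 9 smooth muscle markers lay between 1646 and 3387 with DMSO and between 2988 and 29710 with trametinib, and 6 of the 7 tested rose, of which 4 had a DMSO mean under 10 and entered the test through trametinib. Most of the DMSO sum was Smtn, with means of 2540 and 2934 (adjusted p = 0.13), while Acta2 went from a mean of 28.6 to 6303, Tagln from 21.7 to 5178, Cnn1 from 2.35 to 785 and Myl9 from 4.39 to 563. In lines #1 and #5, Acta2 was at 12670 and 11820 with trametinib, and in lines #3 and #10 at 336 and 384. Tagln was at 8880 and 11540 in lines #1 and #5 and at 112 and 182 in lines #3 and #10. Myh11 was at 40.2 and 72.8 in lines #1 and #5 and at 0 and 3.85 in lines #3 and #10 with trametinib. Des, another marker of the list, had means of 1.01 and 2.67 and was not tested. Kcnma1 and Kcnmb1, channel subunits known from smooth muscle, had means under 10, Kcnmb1 with at most 13.4 in a library. The 7 markers of neurons and glia summed to 200 to 699 with DMSO and to 717 to 2507 with trametinib, of which Tubb3 rose, from a mean of 338 to 1398. Syt1 went from a mean of 2.15 to 18.2, with 59.0 in line #3 (adjusted p = 0.079), Snap25 had means of 10.5 and 8.9, Gfap of 3.97 and 4.48, and Rbfox3 of 1.22 and 0. Endothelial markers summed to 30.9 to 54.6 and to 62.7 to 831, and of the 3 tested only Tek was called, which entered the test through trametinib, with means of 8.21 and 250.4. Of the other lists, fibroblast markers summed to 64.8 to 236 and to 62.6 to 149, leukocyte markers to 12.6 to 35.0 and to 17.3 to 37.2, islet markers to 2.34 to 5.27 and to 1.27 to 16.3, and acinar markers to 24.8 to 247 and to 17.5 to 123. The fibroblast marker Lum, the islet hormones Ins2, Gcg and Sst and the acinar enzyme Cpa1 were at 0 in every library. Of the 6 epithelial markers tested, 5 fell (Krt8, Krt18, Krt19, Sox9 and Muc1), and Cdh1 did not pass. The part of other cells in the changes of the potassium channel genes was not tested, and fewer cells of a type and less RNA per cell cannot be told apart in bulk RNA. In GENCODE M21, exons of Kcnh7, Kcnk1, Kcnn1 and Kcnmb4 overlap exons of another gene on the opposite strand, and reads there may be shared with that gene, while the exons of the other 8 of the 12 members that were called or are Kcns1 overlap none.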

How the data were processed

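RNA of the 8 libraries was made into stranded mRNA libraries and sequenced by the authors, who deposited 1 table of normalized counts, a signal per gene scaled between libraries. The submitters' processing notes name CASAVA 2.17, Salmon 0.12, DESeq2 1.18 and mm10, without saying what each was used for. Whether counting used the strand is not given in the sources used here. All 8 columns were used, and the table holds 34478 gene symbols with no filter on low values.

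Values were transformed as log2(normalized count + 1) and fitted with limma 3.58.1 in R 4.3.3 (lmFit, eBayes with a mean-variance trend), with the treatment and the cell line as terms, over the 15888 genes whose mean reached 10. P-values are two-sided and were adjusted by the Benjamini-Hochberg method, with a threshold of 0.05. The line is a block because the titles give both libraries of a line its number, and their deviations from the treatment means correlated at 0.631 to 0.724 across genes. A test used by the authors for these files is not given in the sources used here. On simulated data the fit recovered 49 of 100 genes changed by 1 on the log2 scale and 87 of 100 changed by 2, with 6 false calls. The changed genes all had a mean of at least 50 and were a small part of the 15204 genes simulated, whereas many genes were called in the data. These figures therefore do not give the power or the false calls for the members here. Changes of about 2-fold could go uncalled in that setting.

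What 1 read was worth was estimated from the pile-up of low values at multiples of a step. A value counted as above 3 reads when it exceeded that floor by 2%. Between 57.2% and 67.8% of values under 20 reads lay within 0.05 of a whole read, so whole reads were not recovered and no count test was run. Gene models are those of GENCODE M21 (GRCm38), matched by symbol for all 88 genes, and levels were divided by the length of the longest transcript. RefSeq promoter windows matched 65 of the 88 genes by symbol, and windows of chromosome 18 were left out of this count and of the motif shares. Python 3.11.15, pandas 2.3.3 and matplotlib 3.10.9 were used for tables and plots.

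The members and the lists were chosen with earlier results of these data known. The genes named are Kcns1, the members with an adjusted p under 0.05, the 6 members with the highest means, those that rose and fell by over 1 in different lines, low members above 3 reads throughout a treatment or at 20 or more in a library, the members beside the filter, and those listed at 0 everywhere. Some genes and an allele are not reported here by name, though the genes are in the fits and counts. Other members named were chosen after their values were seen, as was the test between lines. The alternatives tried are pseudocounts of 0.1 and 5, equal totals, quantile normalization, centring on the median, no filter, a filter at 50, no block, eBayes without trend or with robust estimation, a test against 2-fold, a correction for gene length and GC content with the block, and leaving out each line.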

Additional observations from a re-analysis of the deposited data

Results flagged for a closer look

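Among 24 of the 25 potassium channel genes with a mean of at least 10, the lowest or highest line stood far from the other 3 in 11 of 72 groups of 4 values. An assumed rate of 1 in 20 would give 3.6, and the groups of a gene share libraries. The 11 include Kcns1 with DMSO, at 1.55 normalized counts or about 2 reads in line #1 and at 0 in the other lines. That entry was fixed by these reads alone, and nothing is read from the count of 11 against 3.6.

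Line #3 stood apart for 4 genes. Kcnj2 was at 201 with DMSO there and between 0 and 4.97 elsewhere, and at 97.2 with trametinib against 0.963 to 9.8. Kcnt2 was at 63.2 with DMSO against 0 to 10.0, and at 96.7 with trametinib against 0 to 13.8. Kcne3 with trametinib was at 51.0 against 10.1 to 10.6. The log2 change of Kcnab3 was 2.34 against 0.094 to 0.376.

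Line #5 stood apart for Kcnh7 with trametinib, at 226 against 55.9 to 77.3, and for the log2 change of Kcnn3, at 3.13 against 2.03 to 2.18. Kcnh2 with DMSO was at 165 in line #1 against 38.3 to 58.8, and Kcnq3 with DMSO was at 42.9 in line #10 against 2.87 to 5.35.

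Opposite changes between lines were seen for Kcnk2, with a log2 change of 1.17 in line #3 and -5.18 in line #10, and for Kcnq3, with 1.25 in line #5 and -1.06 in line #10. Kcnk2 was at about 1 read with trametinib in line #10, so the size of its change there is uncertain. With 1 library per line and treatment, neither difference between lines was tested.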

How the results depend on the processing

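Of the channel genes tested, the counts called were 7 higher and 4 lower. With the filter at a mean of 50 they were 4 higher and 3 lower. There Kcne2, Kcnmb4, Kcnn1 and Kcnj14 were under the filter and not tested, and the called genes still tested kept their calls. The counts were 4 higher and 2 lower with no replicate block, and 2 higher and 1 lower against a minimum change of 2-fold. For the partner genes the counts of 12 and 4 became 7 and 2 with no block, and 1 and 1 against 2-fold. Of the 88 genes, 61 exceeded 3 reads in a library and 14 had a mean of at least 50. Leaving out each line in turn gave 5 to 6 higher and 3 to 4 lower channel genes. Signs changed only among genes that were not called. For Kcnj11 (0.14) the log2 change was -0.36 with quantile normalization, -0.15 with the length and GC correction, and -0.15 to 0.36 with each line left out. For Kcnj2 (0.15) it was -0.07 with a pseudocount of 5, -0.34 with quantile normalization and -0.12 to 0.29 without line #1, #5 or #10 (without line #3 it was under the filter). Kcnt2 (0.21) was at -0.16 with quantile normalization. With a line left out, Kcnf1 ran from -0.30 to 0.04 and Kcnq5 from -0.58 to 0.17. Kcnk2 passed with quantile normalization (log2 change -3.10, adjusted p = 0.0453). Kcns1, described without a test, was at 9.19 with a pseudocount of 0.1 and 4.54 with 5. With DMSO it was at 1.55 in line #1 and at 0 in the other lines, so the size of its change depends on the pseudocount. The cause of the other shifts was not tested. Over all genes, 4341 were higher and 4075 lower, against 5317 and 3283 with equal totals and 3327 and 5003 with the length and GC correction. The counts over all genes were 2205 and 2347 with no block, 557 and 176 against 2-fold, and 3669 and 3869 with the filter at 50. Equal totals moved the median log2 change of all genes by 0.13, and the length and GC correction by -0.15. Without the block the adjusted p of Kcnd1 was 0.129, that of Kcnj14 0.0871 and that of Kcnmb4 0.077. Low members are limited by depth, since 3 reads come to 2.32 to 3.72 normalized counts.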

Other observations

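There were 4 potassium channel genes under the filter that were listed at 0 in all DMSO libraries and exceeded 3 reads in a trametinib library, and 0 with the reverse pattern. Of all 34478 genes, 0.966% showed the first pattern and 0.51% the reverse, and with so few members nothing is read from the difference. Kcnc2, a fast delayed rectifier subunit, was at 13.9, 8.25, 1.78 and 0 normalized counts with trametinib in lines #1, #3, #5 and #10. Kcng2, a silent modifier, was at 14.0 in line #1 and 0.564 in line #10, the modifier Kcns3 at 3.00 in line #10 and the beta subunit Kcnab2 at 1.82 in line #1 and 9.38 in line #3. None of these was tested, and Kcns3 was at its highest close to 3 reads.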
